A study of Mus musculus with 6 samples.

Results

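*Hand2* and 9 genes of the fibroblast growth factor (FGF) family were followed in the mouse uterus with and without SOX17 in its epithelium. The 9 were the ligand genes *Fgf1*, *Fgf2*, *Fgf9*, *Fgf10* and *Fgf18*, the FGF homologous factor gene *Fgf12*, and the receptor genes *Fgfr1*, *Fgfr2* and *Fgfr3*. *Hand2* and these 9 were taken by name, 10 genes of the 20145 that could be named on the array. Every probe that the array design ties to them by transcript accession was read. RNA of the whole uterus was hybridized to 6 Agilent arrays of 1 color, 3 from *Sox17* f/f mice and 3 from *Sox17* ed/ed mice, 1 mouse to an array. All 6 females carried floxed *Sox17* alleles. The *Sox17* ed/ed females also carried LtfiCre, a Cre recombinase driven by the lactotransferrin gene, which deletes *Sox17* in the uterine epithelium from puberty on, whereas their littermates without it were the controls, labeled wild type. Females were mated at 8 to 10 weeks of age with fertile males, and uteri were taken at gestation day (GD) 3.5, the receptive stage, after the embryos had been flushed out. The Cre acts in the epithelium, so the other cells of the organ in the *Sox17* ed/ed samples could still transcribe *Sox17*.

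HAND2 is a basic helix-loop-helix transcription factor of the endometrial stroma. In the pregnant uterus, Indian hedgehog from the progesterone-primed epithelium acts through its receptor Patched on the stroma below, where the orphan receptor COUP-TFII and HAND2 are induced, and HAND2 is known to hold down stromal FGF ligand genes. Secreted FGFs bind receptor tyrosine kinases together with heparan sulfate, and in the epithelium they drive the adaptor FRS2, the ERK kinase cascade and cell division. The array measures the transcripts of this relay in the organ as a whole, and fewer cells of a type and less RNA per cell cannot be told apart in such samples.

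HAND2 binds E-box sequences as a dimer with E-proteins, and CATCTG, which reads CAGATG on the other strand, is a form that HAND2 dimers are known to prefer. Promoters from RefSeq on the GRCm38.p6 build, each 300 bases long and reaching from 250 bases before the annotated start to 50 after it, were held for 8 of the 10 genes, 12 promoters in all, with none for *Fgf1* and *Fgfr1*. The 3 stretches below are shown because they are the ones among these promoters that hold the form, capitals marking it in 30 bases printed 5′ to 3′ on the strand of the gene. They lie at chr8:57320733-57320762 on the plus strand for *Hand2*, with the form beginning at position -246 from the start, at chr13:118714551-118714580 on the plus strand for *Fgf10*, at position -136, and at chr7:130266793-130266822 on the minus strand for *Fgfr2*, at position -2.
Hand2: gaagCATCTGttaaacacttgcattaacct
Fgf10: agcttagggtttCAGATGtcccaccgccgt
Fgfr2: ttactctgcaggCAGATGtgcggataagta
Of all 32851 promoters in the table, 5635 (17.2%) hold CATCTG or CAGATG. The SOX core ATTGTT, or AACAAT, is in 10.7% of all promoters and in 0 of the 12, and the GLI sequence GACCACCCA, or TGGGTGGTC, is in 0.253% and in 0 of the 12. A match describes the letters of the window and was not measured as binding. The start of the antisense transcript *Hand2os1* lies 124 bases from that of *Hand2* on the opposite strand, and *Hand2os1* was not analysed here.

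The labels were checked on the deleted gene. *Sox17* had a log2 signal of 12.21, 12.07 and 12.22 in the *Sox17* f/f uteri and 9.75, 9.59 and 9.81 in the *Sox17* ed/ed uteri. It fell by 2.45 on the log2 scale (SE 0.09, adjusted p = 2.66e-05 by limma), and its other probe differed by -2.97, although the part of the gene that either probe covers is not given in the sources used here. Each genotype filled its own row of 1 slide, so slide position and genotype cannot be told apart. More spots were well above background in every control array (60.7% to 65.7%) than in any array without epithelial SOX17 (56.8% to 59.4%).

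In the uteri without epithelial SOX17, *Fgf10* and *Fgf12* were higher and *Fgf18* was lower. The other 7 genes, *Hand2* among them, did not pass the test. A call here is an adjusted p under 0.05 by limma over all 14847 genes tested, and 18.9% of those genes were called, 8.84% as higher in *Sox17* ed/ed and 10.1% as lower. Beside that, 3 of the 10 genes were called, 2 higher and 1 lower. The median log2 fold change, *Sox17* ed/ed minus *Sox17* f/f, was 0.11 over the 10 genes and -0.0016 over all genes. Without *Sox17* f/f replicate 3 the called genes of the set numbered 6, the others being *Fgf1*, *Fgf2* and *Fgfr3*. In that setting 2657 of all 14847 genes were called, against 2808 with all 6 arrays. By the thresholds named in the methods of the study, an unadjusted p under 0.01 and a fold of at least 1.4, 12.5% of all genes passed and again 3 of the 10.

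**Figure D1:**
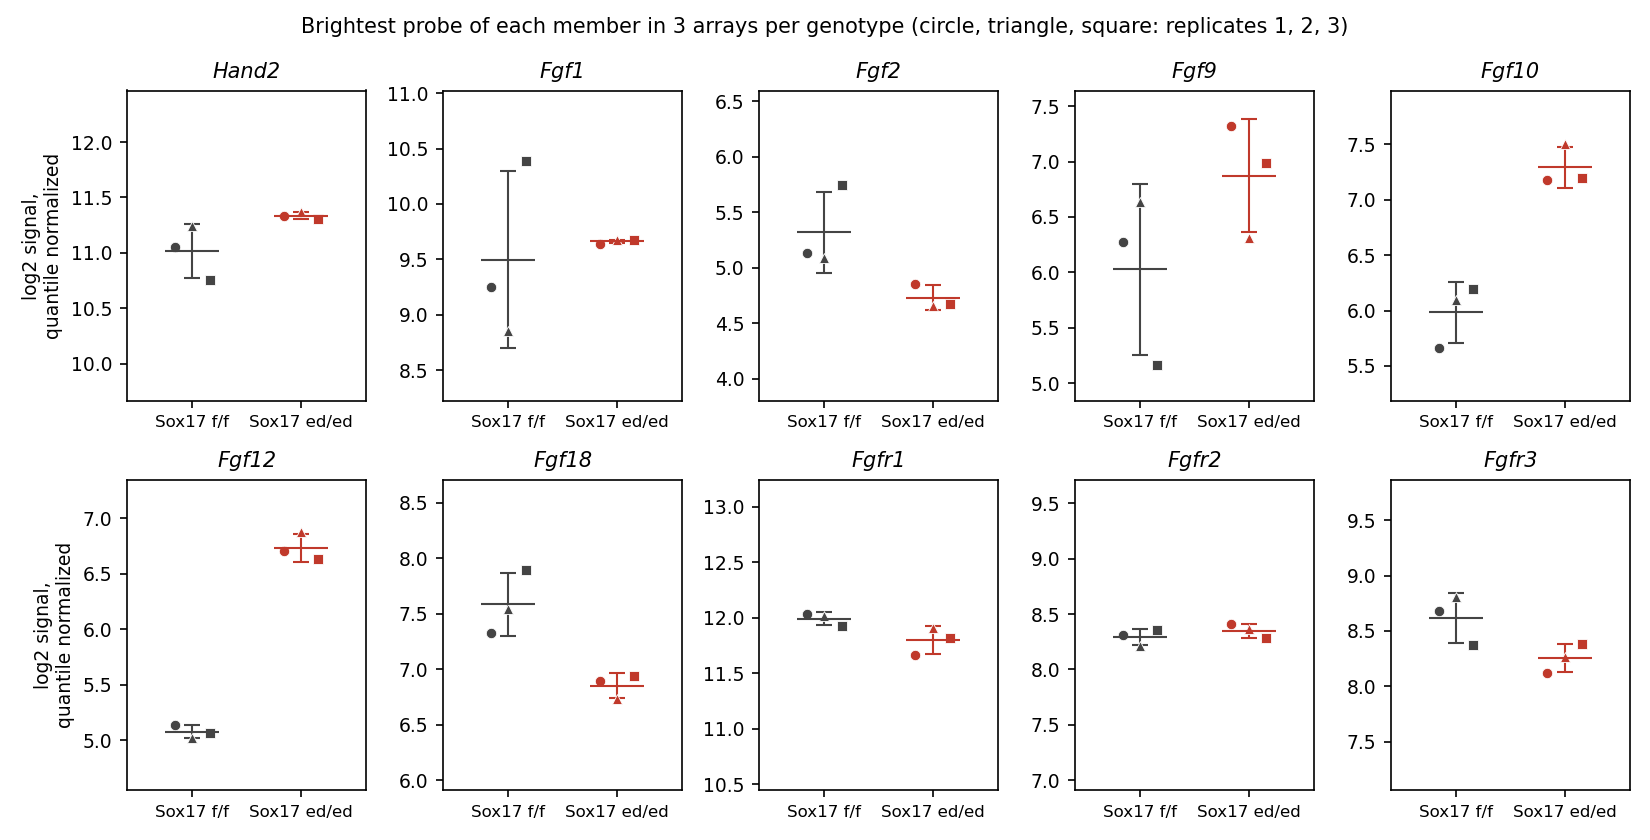
Quantile normalized log2 signal (vertical axis) of the brightest probe of each of the 10 genes in each array, by genotype (horizontal axis), with horizontal bars for means and error bars for 1 SD of 3 arrays, every panel spanning the same log2 range. The arrays of the genotypes lie apart for *Hand2*, *Fgf2*, *Fgf10*, *Fgf12*, *Fgf18* and *Fgfr1* and overlap for *Fgf1*, *Fgf9*, *Fgfr2* and *Fgfr3*.

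*Hand2*, the transcription factor of the relay, was read by 1 probe. Its log2 signal was 11.05, 11.24 and 10.76 in the *Sox17* f/f uteri and 11.33, 11.37 and 11.31 in the *Sox17* ed/ed uteri. All 3 *Sox17* ed/ed values lay above all 3 control values, and they were close together while the controls were spread, with SDs of 0.03 and 0.24. The log2 fold change was 0.32 (SE 0.12, 95% interval 0.02 to 0.62), a 1.25-fold difference that limma gave an unadjusted p of 0.0408 and an adjusted p of 0.129. The exact permutation p was 0.1, two-sided, which is the smallest that 3 arrays against 3 can give. Genotypes lay apart, with no overlap of their arrays, in 6 of the 10 genes, beside 40.6% among all those tested. Without *Sox17* f/f replicate 3, the lowest control, the *Hand2* difference was 0.19 (adjusted p = 0.186), and without *Sox17* f/f replicate 2, the highest, it was 0.43 (adjusted p = 0.0645).

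The genes tested whose profiles over the 6 arrays were most like that of *Hand2*, each centered on its own mean, were *Mpp3*, *Ifna5* and *Atp11a*. Their root mean square differences from the *Hand2* profile were 0.042, 0.053 and 0.054 on the log2 scale. Each had its lowest value in *Sox17* f/f replicate 3, like *Hand2*, which a choice by likeness to that profile makes likely. *Ifna5* was dim, at a log2 signal of 4.37 to 4.99.

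*Fgf10* encodes a secreted ligand of mesenchyme that signals to the epithelial form of FGFR2. Its log2 signal was 5.67, 6.09 and 6.19 in the *Sox17* f/f uteri and 7.18, 7.50 and 7.20 in the *Sox17* ed/ed uteri. The genotypes did not overlap, the lowest *Sox17* ed/ed value standing well above the highest control. *Fgf10* rose by 1.31 on the log2 scale (SE 0.16, 95% interval 0.91 to 1.71), 2.48-fold, with an adjusted p of 0.00335 by limma. Its probe was printed in 10 spots on each array, and the SD among those spots, a technical spread within 1 mouse, was 0.072 to 0.14. Its signals before normalization were 47.0 to 80.0 in the controls and 146 to 171 in the *Sox17* ed/ed uteri. The normexp alternative, which takes median spot signals, corrects their background in another way and adds an offset of 50, gave a difference of 0.78 on the log2 scale (adjusted p = 0.000209). The offset by its construction makes log2 differences of dim probes smaller, and its part was not separated from that of the correction.

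*Fgf12* encodes an FGF homologous factor, a member of the family by sequence that is not secreted in the usual way, lacks the usual FGF receptor signaling and binds voltage-gated sodium channels inside the cell. Its log2 signal was 5.14, 5.02 and 5.06 in the *Sox17* f/f uteri and 6.70, 6.88 and 6.63 in the *Sox17* ed/ed uteri. The controls were close together and all *Sox17* ed/ed values stood above them. This probe was also printed in 10 spots, with an SD among the spots of an array of 0.064 to 0.44. Its signals before normalization were 32.1 to 41.8 in the controls and 101 to 111 in the *Sox17* ed/ed uteri. *Fgf12* rose by 1.66 on the log2 scale (SE 0.09, 95% interval 1.46 to 1.87), 3.17-fold, with an adjusted p of 9.22e-05 by limma. A further probe of *Fgf12* read 4.32, 3.35 and 3.27 in the controls and 5.43, 5.25 and 5.32 in the *Sox17* ed/ed uteri on the log2 scale, a difference of 1.68 (adjusted p = 0.0191 in a limma fit over all 32735 probes kept). That probe was well above background on 2 of 3 control arrays. Under the normexp setting, with its offset, the *Fgf12* difference was 0.82 (adjusted p = 3.86e-05).

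*Fgf18* encodes a secreted ligand best known from bone and cartilage. Its log2 signal was 7.33, 7.54 and 7.89 in the *Sox17* f/f uteri and 6.89, 6.73 and 6.94 in the *Sox17* ed/ed uteri. The genotypes lay apart, though the controls were more spread than the *Sox17* ed/ed samples. *Fgf18* fell by 0.74 on the log2 scale (SE 0.15, 95% interval -1.10 to -0.37), a 1.66-fold difference with an adjusted p of 0.0213 by limma. Its other probe read 6.03, 6.56 and 6.68 in the controls and 5.45, 5.06 and 5.68 in the *Sox17* ed/ed uteri on the log2 scale, a difference of -1.03 (adjusted p = 0.0434 in the fit over all probes). The call was lost, with the difference still negative, without *Sox17* f/f replicate 2 (-0.76, adjusted p = 0.0588) and without *Sox17* ed/ed replicate 1 (-0.76, adjusted p = 0.0633), 2 (-0.67, adjusted p = 0.0685) or 3 (-0.78, adjusted p = 0.0557). An ordinary linear model, without limma's sharing of the spread across genes, gave an adjusted p of 0.078.

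**Figure D2:**
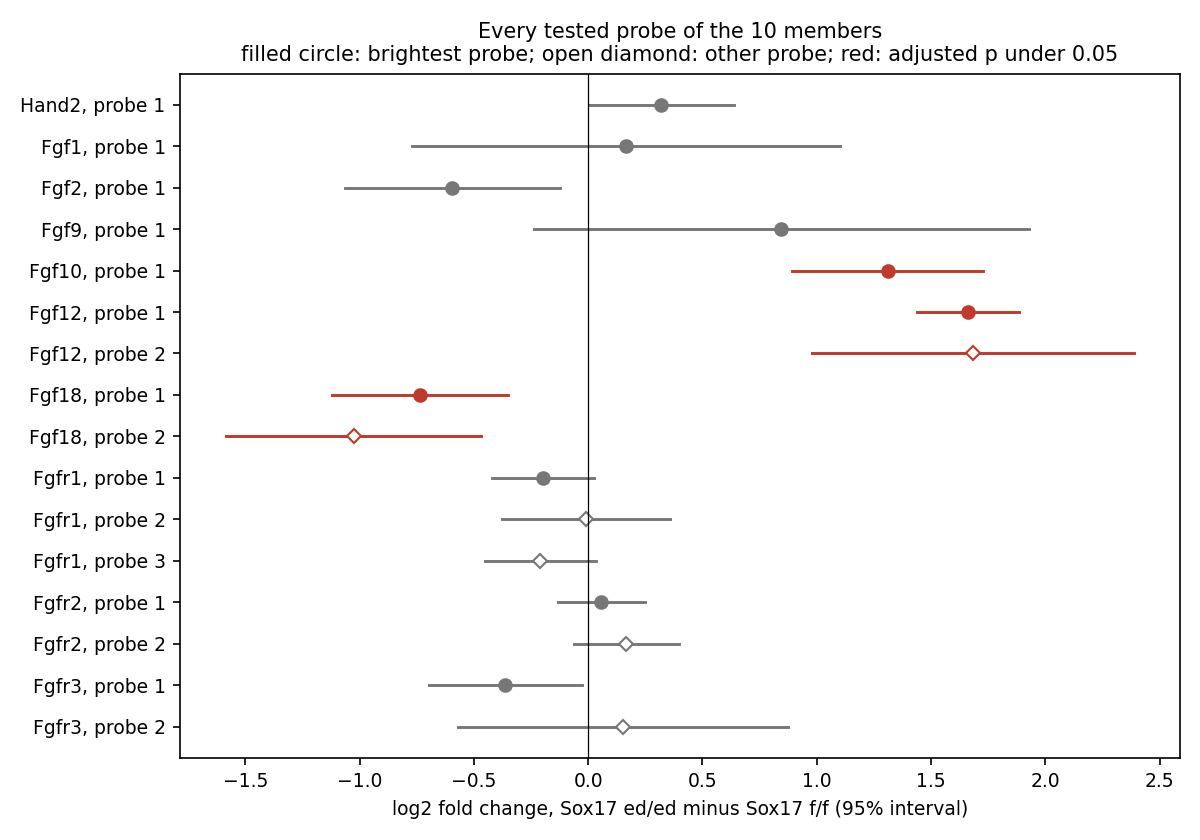
Log2 fold change, *Sox17* ed/ed minus *Sox17* f/f, with its 95% interval (horizontal axis) for each of the 16 tested probes of the 10 genes, from the limma fit over all probes, circles marking the brightest probe of a gene and diamonds the others. Both *Fgf12* probes lie to the right of 0 and both *Fgf18* probes to the left, whereas the probes of *Fgfr3* lie on opposite sides.

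The remaining ligands did not pass the test. *Fgf2*, the basic FGF, had a log2 signal of 5.13, 5.09 and 5.74 in the *Sox17* f/f uteri and 4.86, 4.66 and 4.67 in the *Sox17* ed/ed uteri. The genotypes lay apart, with all *Sox17* ed/ed values below the controls. The SD among the 10 spots of its probe on an array was 0.15 to 0.35. The log2 fold change was -0.59 (SE 0.19, 95% interval -1.04 to -0.14, adjusted p = 0.0756 by limma). The signal was close to background, being well above it on all 3 control arrays and on 2 of 3 *Sox17* ed/ed arrays, and the normexp setting gave -0.18 (adjusted p = 0.216). Without *Sox17* f/f replicate 3 the *Fgf2* difference was -0.38 and passed the test (adjusted p = 0.0455).

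*Fgf9*, a secreted ligand of mesenchymal FGF receptor forms, had a log2 signal of 6.28, 6.64 and 5.16 in the *Sox17* f/f uteri and 7.32, 6.31 and 6.99 in the *Sox17* ed/ed uteri. The genotypes overlapped, since *Sox17* ed/ed replicate 2 lay below *Sox17* f/f replicate 2. The log2 fold change was 0.85 with a wide interval (SE 0.43, 95% interval -0.20 to 1.89, adjusted p = 0.226 by limma), and that interval holds 0 as well as differences larger than that of *Fgf12*. Under the normexp setting the *Fgf9* difference was 0.46 (adjusted p = 0.118).

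*Fgf1*, the acidic FGF, which binds all FGF receptors, had a log2 signal of 9.25, 8.86 and 10.39 in the *Sox17* f/f uteri and 9.64, 9.67 and 9.67 in the *Sox17* ed/ed uteri. The *Sox17* ed/ed samples were nearly equal and lay within the range of the controls, *Sox17* f/f replicate 3 being far above its group. The log2 fold change was 0.16 (SE 0.37, 95% interval -0.74 to 1.07, adjusted p = 0.797 by limma). This value depended on each of the controls. The difference was 0.61 without *Sox17* f/f replicate 3 (adjusted p = 0.0304 by limma). It was 0.04 without replicate 1 (adjusted p = 0.968) and turned to -0.16 without replicate 2 (adjusted p = 0.805). Another *Fgf1* probe was well above background on 1 array of each genotype and was not tested.

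None of the 3 receptor genes passed the test. *Fgfr1*, the receptor of mesenchymal cells in many tissues, had a log2 signal of 12.03, 12.02 and 11.93 in the *Sox17* f/f uteri and 11.66, 11.91 and 11.82 in the *Sox17* ed/ed uteri. All *Sox17* ed/ed values were below the controls by a small margin, with a log2 fold change of -0.20 (SE 0.09, 95% interval -0.40 to 0.01, adjusted p = 0.164 by limma). Its other probes gave -0.01 (adjusted p = 0.983) and -0.21 (adjusted p = 0.241) in the fit over all probes, and in both the genotypes overlapped.

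*Fgfr2*, the receptor of epithelial cells for FGF7 and FGF10, had a log2 signal of 8.31, 8.21 and 8.35 in the *Sox17* f/f uteri and 8.41, 8.36 and 8.28 in the *Sox17* ed/ed uteri. The genotypes overlapped, and the log2 fold change was 0.06 (SE 0.07, adjusted p = 0.614 by limma), with a narrow 95% interval of -0.11 to 0.23. Another *Fgfr2* probe, printed in 10 spots, differed by 0.17 on the log2 scale (adjusted p = 0.312 in the fit over all probes), and there all *Sox17* ed/ed values, 6.52, 6.51 and 6.44, stood just above the controls, 6.17, 6.43 and 6.38. Epithelium and mesenchyme make different splice forms of *Fgfr2*, and the exons under these probes are not given in the sources used here, so the forms cannot be told apart.

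*Fgfr3*, a receptor for FGF9 and FGF18, had a log2 signal of 8.68, 8.80 and 8.37 in the *Sox17* f/f uteri and 8.13, 8.26 and 8.38 in the *Sox17* ed/ed uteri. The genotypes overlapped at *Sox17* f/f replicate 3 and *Sox17* ed/ed replicate 3. The log2 fold change was -0.36 (SE 0.13, 95% interval -0.68 to -0.04, adjusted p = 0.110 by limma), and without *Sox17* f/f replicate 3 it was -0.49 (adjusted p = 0.0322). Its dimmer probe gave 0.15 in the fit over all probes (adjusted p = 0.784), with the opposite sign.

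**Figure D3:**
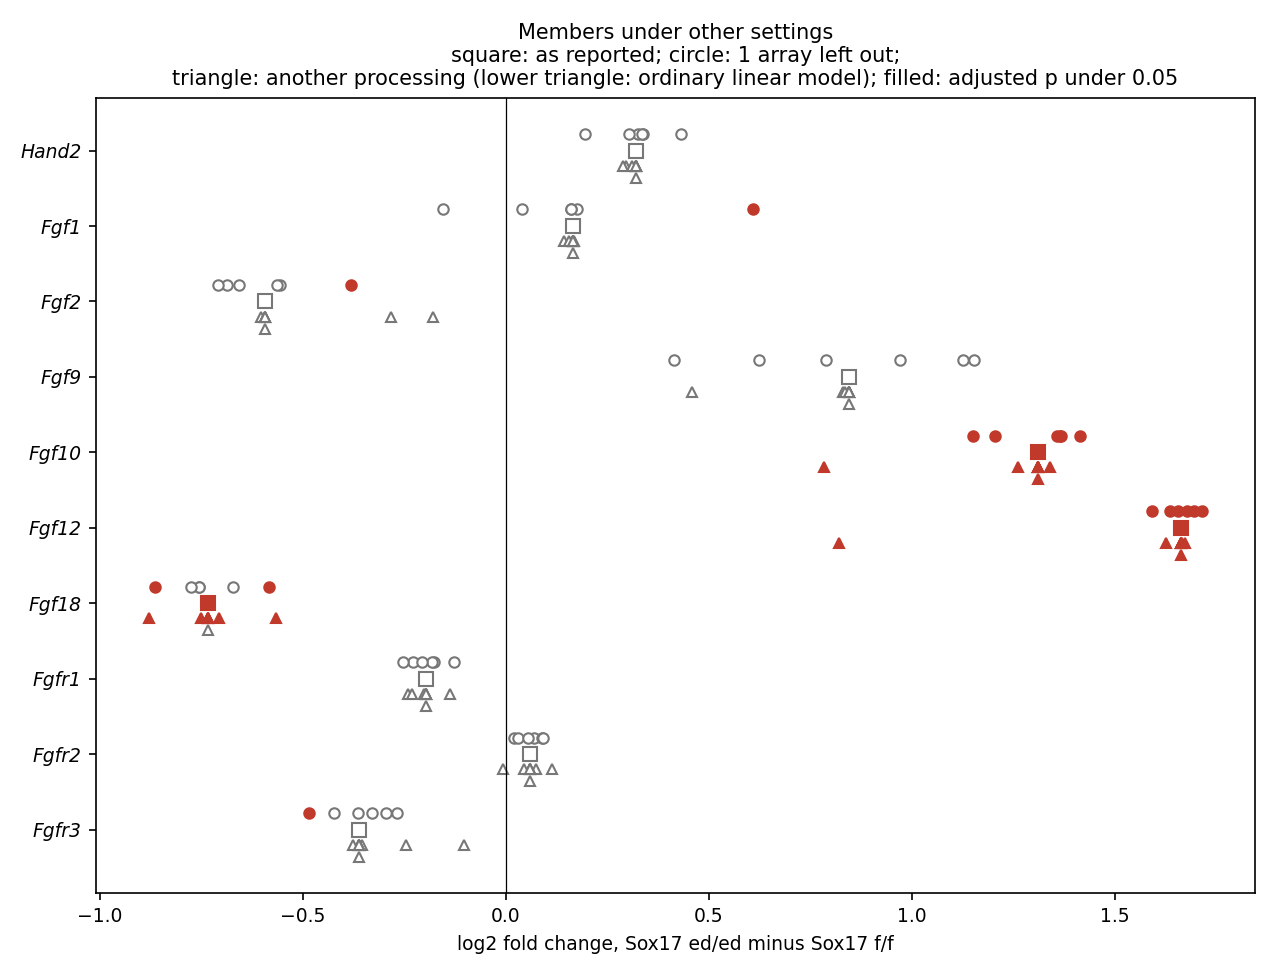
Log2 fold change, *Sox17* ed/ed minus *Sox17* f/f (horizontal axis), of each of the 10 genes as reported (squares), with 1 array left out (circles) and with another processing (triangles), filled where the adjusted p was under 0.05. *Fgf10* and *Fgf12* were called under every setting shown, *Hand2*, *Fgf9*, *Fgfr1* and *Fgfr2* under none, and *Fgf18* was lost without *Sox17* f/f replicate 2, without each *Sox17* ed/ed replicate and in the ordinary linear model.

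The genes around these 10 were taken from 8 lists of 121 genes, of which 119 were on the array and 98 were tested. In all, 28 of the 98 (28.6%) were called, 13 higher and 15 lower, with a median log2 fold change of 0.03, against 18.9% and -0.0016 over all genes. Without *Sox17* f/f replicate 1 the calls in the lists numbered 18, while those over all genes went from 2808 to 1650.

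Upstream of *Hand2*, in the hedgehog relay, 4 of 13 genes fell and 0 rose, and the median log2 fold change of the list was 0.01. *Ihh*, the epithelial hedgehog ligand, had a log2 signal of 12.60, 12.72 and 12.41 in the *Sox17* f/f uteri and 9.57, 9.35 and 9.80 in the *Sox17* ed/ed uteri. It fell by 3.01 on the log2 scale (SE 0.14, adjusted p = 6.63e-05 by limma). *Hhip*, a hedgehog-binding antagonist that hedgehog itself induces, fell by 3.79 (SE 0.19), and *Ptch1*, the receptor and a target of the pathway, fell by 1.27 (SE 0.13) on the log2 scale. The other 9 genes of the list did not pass the test. *Nr2f2*, which encodes COUP-TFII, differed by -0.02 on the log2 scale (SE 0.07, 95% interval -0.19 to 0.16, adjusted p = 0.893 by limma), *Gli1*, a transcriptional effector of hedgehog, by -0.26 (adjusted p = 0.108) and *Pgr*, the progesterone receptor, by 0.01 (adjusted p = 0.947).

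Among the partners and inhibitors of HAND2 dimers, 3 of 9 tested genes rose and 0 fell, with a median log2 fold change of 0.13. The 3 were *Id1* (0.65, SE 0.13), *Id2* (0.65, SE 0.11) and *Id3* (0.77, SE 0.07), inhibitor genes whose products take up E-proteins and do not bind DNA. The log2 signal of *Id3* was 12.52, 12.48 and 12.41 in the *Sox17* f/f uteri and 13.21, 13.23 and 13.30 in the *Sox17* ed/ed uteri, apart and narrow in both. The E-protein genes did not pass, *Tcf12* differing by -0.18 (adjusted p = 0.105), *Tcf3* by -0.08 (adjusted p = 0.496) and *Tcf4* by 0.13 (adjusted p = 0.448) on the log2 scale.

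Of the 16 other ligand and homologous factor genes of the FGF family, 5 were tested, and 7 were not well above background on any array. *Fgf7*, which shares the epithelial FGFR2 form with *Fgf10* as its receptor, had a log2 signal of 8.15, 7.99 and 8.05 in the *Sox17* f/f uteri and 7.25, 7.56 and 7.42 in the *Sox17* ed/ed uteri. It fell by 0.65 (SE 0.10, adjusted p = 0.00651 by limma), so these ligands of the same receptor moved in opposite directions, *Fgf10* up and *Fgf7* down. *Fgf11* and *Fgf14*, like *Fgf12* FGF homologous factor genes, differed by -0.71 (adjusted p = 0.0591) and -0.28 (adjusted p = 0.239) on the log2 scale, on the other side of 0 from *Fgf12*.

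Of the other FGF receptor and coreceptor genes, 5 of 19 rose and 1 fell, with a median log2 fold change of 0.20. *Fgfr4*, the remaining FGF receptor gene with a kinase domain, had a log2 signal of 6.26, 6.28 and 6.96 in the *Sox17* f/f uteri and 7.50, 7.42 and 7.50 in the *Sox17* ed/ed uteri. It rose by 0.97 (SE 0.19, adjusted p = 0.0181 by limma). The heparan sulfate proteoglycan genes *Sdc1* (0.46, SE 0.09) and *Sdc2* (0.45, SE 0.08) rose on the log2 scale, as did *Flrt1* (0.70, SE 0.16), which encodes a membrane protein that binds FGF receptors. *Gpc3*, a proteoglycan gene of the glypican family, fell by 0.74 (SE 0.08), while *Gpc1* of the same family rose by 0.41 (SE 0.08).

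Inside the cell, adaptors and kinases carry the signal from the receptor to ERK. Of 24 adaptor and ERK relay genes tested, 2 rose and 3 fell, with a median log2 fold change of -0.03. The kinase gene *Rps6ka1* rose by 0.60 (SE 0.08) and the kinase gene *Araf* by 0.23 (SE 0.06) on the log2 scale. The exchange factor gene *Sos1* fell by 0.49 (SE 0.12), *Braf* by 0.36 (SE 0.06) and *Rps6ka3* by 0.31 (SE 0.06). *Frs2*, the FGF receptor adaptor, differed by -0.10 (adjusted p = 0.363).

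Of 14 feedback inhibitor and ERK target genes tested, 1 rose and 4 fell, with a median log2 fold change of 0.04. *Fos*, an immediate early gene, had a log2 signal of 9.26, 9.40 and 9.61 in the *Sox17* f/f uteri and 7.10, 7.50 and 7.37 in the *Sox17* ed/ed uteri. It fell by 2.10 (SE 0.14, adjusted p = 0.000234 by limma). The phosphatase gene *Dusp4* fell by 1.48 (SE 0.21), the ETS factor gene *Etv5* by 0.87 (SE 0.11) and the immediate early gene *Egr1* by 0.83 (SE 0.09), while the cyclin gene *Ccnd1* rose by 0.41 (SE 0.07). The inhibitors most often read as FGF targets did not pass, *Spry1* differing by 0.10 (adjusted p = 0.643), *Spry2* by -0.07 (adjusted p = 0.823) and *Dusp6* by 0.09 (adjusted p = 0.389) on the log2 scale.

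The sodium channel genes and other partners of FGF homologous factors were tested beside *Fgf12*. Of 10, 2 rose and 1 fell, with a median log2 fold change of 0.07. *Scn2b* (0.62, SE 0.09) and *Scn1a* (0.58, SE 0.14) were the genes that rose. Of 4 regulators of receptor splicing, *Esrp2*, an epithelial splicing factor gene that promotes the epithelial form of *Fgfr2*, fell by 0.96 (SE 0.17, adjusted p = 0.0129 by limma), and *Esrp1* differed by -0.06 (adjusted p = 0.710).

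**Figure D4:**
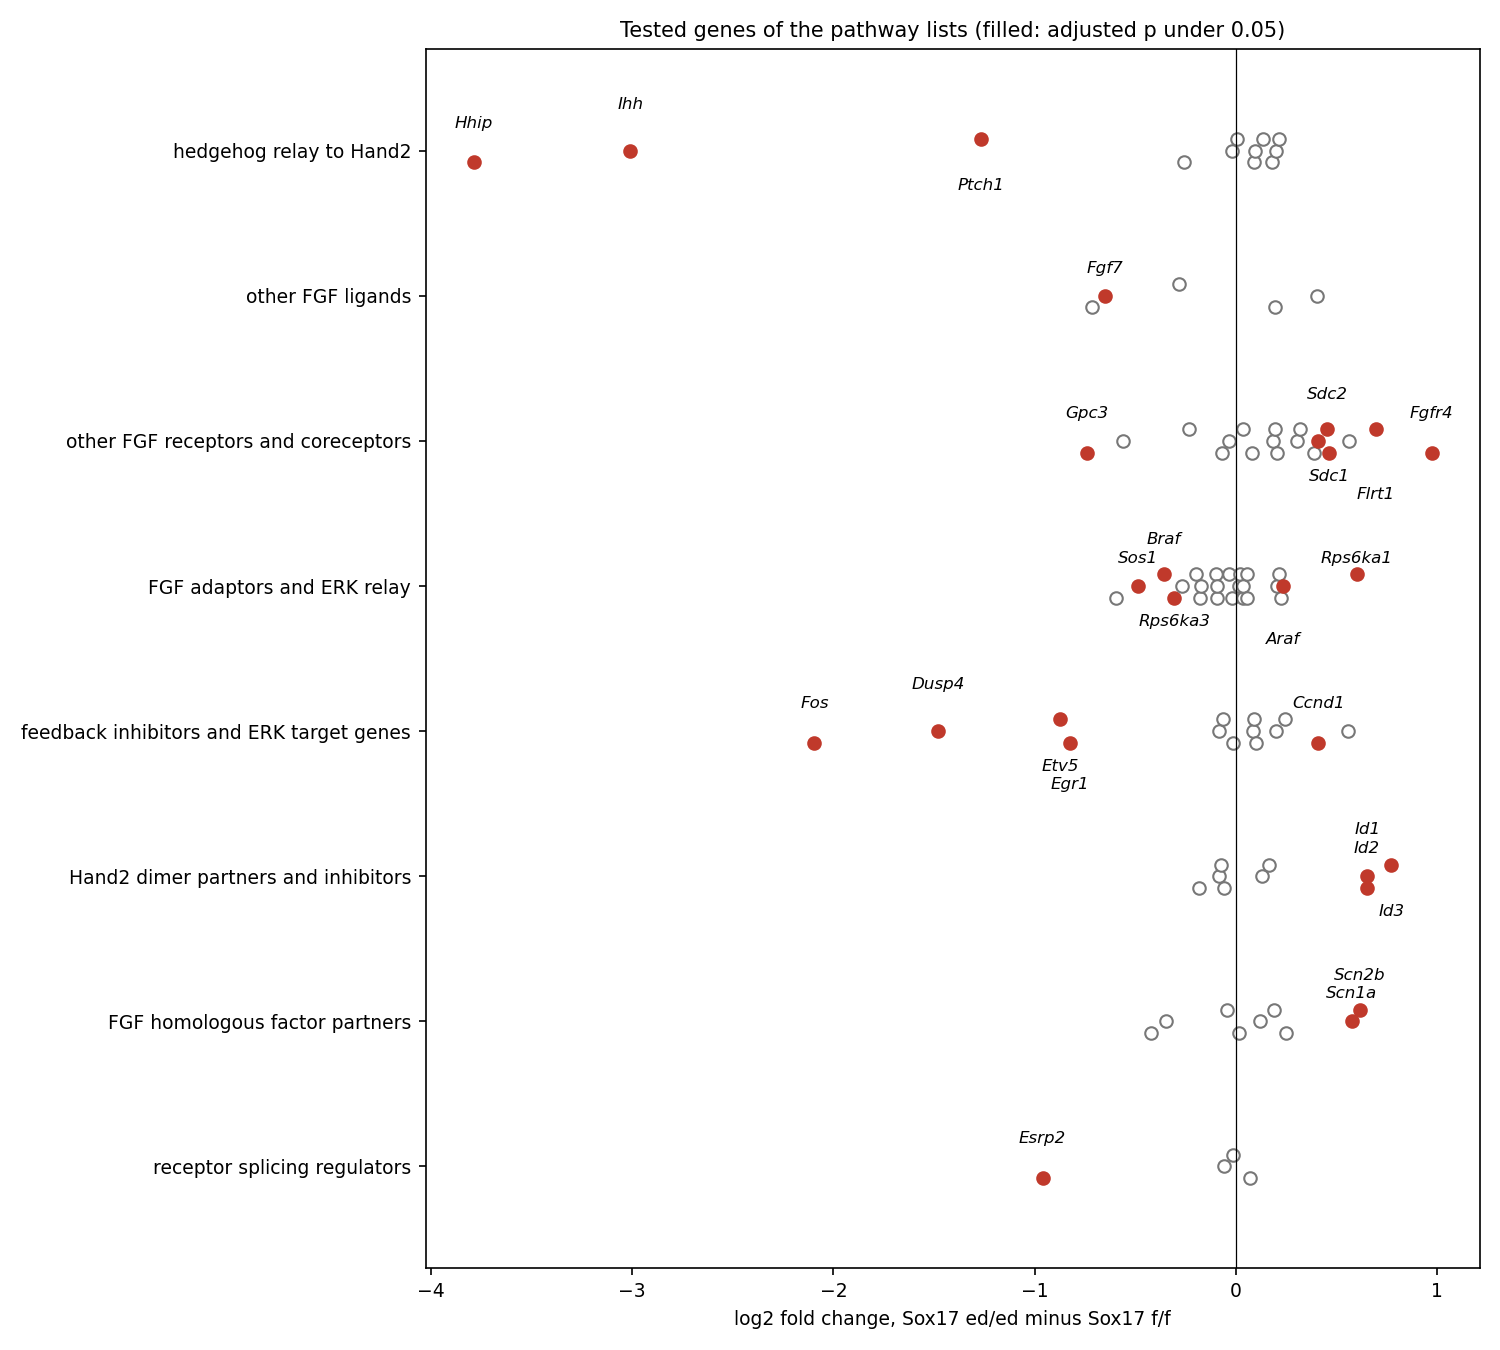
Log2 fold change, *Sox17* ed/ed minus *Sox17* f/f (horizontal axis), of tested genes in the 8 lists around *Hand2* and the FGF genes (rows), filled where the adjusted p was under 0.05, with at most 4 names in each direction per list, the small vertical offsets only keeping points apart. The hedgehog genes *Hhip* and *Ihh* reach farthest to the left, and the Id genes lie to the right of 0.

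Markers of the cells of the uterus were counted in the same fit, in which 18.9% of all genes tested were called. The lists are short. The share called was 12.5% for cell cycle, 20% for stroma and leukocytes, and 25% for smooth muscle and squamous epithelium. It was 40% for nerve, 55.6% for uterine epithelium, 57.1% for endothelium and 75% for mesothelium. Of 10 endometrial stroma markers, the compartment of *Hand2*, 1 rose and 1 fell, and their summed signal was 495300 to 514000 in the *Sox17* f/f arrays and 433100 to 491500 in the *Sox17* ed/ed arrays. Of 8 smooth muscle markers 2 fell (494500 to 546200 against 368400 to 443900), and of 7 endothelial markers 4 fell (12060 to 12730 against 9694 to 10250). Of 9 epithelial markers 4 rose, *Krt19*, *Krt7*, *Krt8* and *Cdh1*, and 1 fell, *Cldn3* (47540 to 49370 against 50650 to 62810). Mesothelial markers rose in 2 and fell in 1 of 4 (13280 to 14100 against 16070 to 16210), and leukocyte markers rose in 1 of 5 (14480 to 14740 against 16880 to 18510). A summed signal follows the brightest genes of its list. In the epithelial list *Krt19* rose from a mean log2 signal of 12.02 in *Sox17* f/f to 14.12 in *Sox17* ed/ed. *Krt18*, *Cldn4*, *Epcam* and *Elf3* of that list were not called. In the stromal list the gene that fell was *Dcn*, from 16.80 to 16.37, and the gene that rose was *Hoxa10*, from 11.81 to 12.15. The mesothelial sum was mostly *Wt1*, with a mean log2 signal of 13.68 in *Sox17* f/f and 13.94 in *Sox17* ed/ed. The dimmer *Upk3b* rose from 5.46 to 7.02 and *Lrrn4* fell from 4.98 to 3.74. Of 8 cell cycle genes 1 rose, with summed signals of 19370 to 23490 and 27020 to 29960, and of 5 nerve markers 2 rose (493.2 to 569 against 535.1 to 646.9). Of 4 squamous epithelium markers 1 rose, *Krt5*, not well above background in the controls, with summed signals of the list near one another (2884 to 3384 against 2940 to 3162). *Krt5*, at a mean log2 signal of 3.24 in *Sox17* f/f and 6.02 in *Sox17* ed/ed, added little to that sum. The part of these markers in the differences of *Fgf10*, *Fgf12* and *Fgf18* was not tested.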

How the data were processed

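The authors deposited scanner output of 6 Agilent arrays of 1 color (3 *Sox17* f/f, 3 *Sox17* ed/ed, grouped by title). The values used are the deposited processed signal, an intensity per spot from which the software (Feature Extraction 11.0.1.1 in the file headers, 9.1 in the submitters' processing notes) had subtracted background. A table of processed values, also deposited, lay within 0.191% of its mean over spots and carries no normalization between arrays. Low intensities become uncertain on a log scale after subtraction.

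Control spots (3671 per array) and 169 to 302 outlier spots were left out, log2 values were quantile normalized, as the methods of the study name, and values were averaged over the spots of each probe. A probe was kept, as 32735 of 55681 were, if it was well above background on 3 or more arrays. Of all probes, 26582 were named by accession through RefSeq (GRCm38.p6). The brightest kept probe stood for a gene. The array design is annotated on mm9, so no probe position is given. The lowest signal well above background was 13.1 to 18.0, and 3 arrays a group limit the precision. The p-values measure the spread between these mice.

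Genotypes were compared with limma 3.58.1 in R 4.3.3 (lmFit, eBayes), p-values were adjusted by Benjamini and Hochberg, and the steps were checked on simulated data. There, with 200 of 14847 genes changed, 19 of 50 genes with a log2 change of 0.5 were recovered, and 45 of 50 with a change of 1. A gene that did not pass the test may therefore still differ by a small amount. A smaller share of genes was changed in the simulation than the 18.9% called in the data. The recovered counts need not hold for this fit. Named were the 10 genes, *Sox17*, *Ihh*, *Ptch1*, *Nr2f2*, up to 4 genes called in each direction per list, and the 3 profiles nearest to *Hand2*. Genes named from the lists without a call (*Gli1*, *Pgr*, the E-protein genes, *Fgf11*, *Fgf14*, *Frs2*, *Spry1*, *Spry2*, *Dusp6*, *Esrp1*) and from the marker lists were picked with values seen. *Gpc1*, named beyond the 4 calls per direction, was picked in the same way. The 10 genes and the lists were chosen with earlier results of these data known. The alternatives were a 75th percentile shift, normexp with an offset of 50 on the median signals, other filters and probe rules, an ordinary linear model, an intensity trend, the deposited table, a replicate block and leaving out each array. Certain genes of the lists enter the counts and are not reported here by name.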

Additional observations from a re-analysis of the deposited data

How the results depend on the processing

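Of the 10 genes, *Fgf10* and *Fgf12* were called under each alternative run, with log2 fold changes of 0.78 to 1.34 and 0.82 to 1.67 over the other processings and 1.15 to 1.41 and 1.59 to 1.72 with 1 array left out. *Hand2* was not called under any of them, at 0.29 to 0.32 (adjusted p 0.0664 to 0.217) and, leaving out 1 array, 0.19 to 0.43 (adjusted p 0.0645 to 0.255). *Fgf18* stayed negative, at -0.88 to -0.57 and, leaving out 1 array, -0.86 to -0.58, and was not called in the ordinary linear model (-0.74, adjusted p = 0.078). *Fgfr2* turned to -0.0068 with the normexp correction (adjusted p = 0.967). Leaving out 1 array, *Fgf1* ranged from -0.16 to 0.61, *Fgf2* from -0.71 to -0.38, *Fgf9* from 0.41 to 1.15, *Fgfr1* from -0.25 to -0.13, *Fgfr2* from 0.02 to 0.09 and *Fgfr3* from -0.49 to -0.27. *Fgf2* has no value where all 6 arrays had to be well above background. Genes called numbered 1857 by the thresholds of the methods and 1650 to 2657 with 1 array left out, 1650 without *Sox17* f/f replicate 1 and 1811 without *Sox17* ed/ed replicate 1; calls among the 10 genes were 2 to 6, with 6 without *Sox17* f/f replicate 3, and those of the lists 18 to 28, with 18 without *Sox17* f/f replicate 1. The main fit did not pair the mice by replicate number. Deviations of samples with the same number correlated at 0.06, -0.11 and -9.5e-05, and those with different numbers at -0.08 to 0.08. With 3 arrays a group these correlations cannot settle whether the mice were paired. With the replicate block, 1856 genes were called, and among the 10 genes the same 3, *Fgf10*, *Fgf12* and *Fgf18*. No scaling moved the median of all genes beyond -0.021. The normexp setting used median spot signals and an offset of 50, which makes differences of dim probes smaller by construction; it gave the lowest values of *Fgf10* and *Fgf12*, 0.46 for *Fgf9* and -0.18 for *Fgf2*, for which the deposited table gave -0.28. The mean of its probes gave -0.10 for *Fgfr3*. Low signal limits *Fgf2*, *Fgf9*, *Fgf10* and *Fgf12*, and *Fgf1* and *Fgf9* have wide intervals from 3 arrays a group.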
